A study of Homo sapiens with 6 samples.

Results

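Mismatch repair genes were examined in HCCC9810, an established human cholangiocarcinoma (CCA) cell line of wild-type genotype, after exposure to isolinderalactone (ILL), a sesquiterpenoid lactone of plant origin. The 6 genes MSH6, MSH3, PMS2, MLH3, PMS1 and EXO1 were taken by symbol from a count table of 19470 genes, and all 6 were present and passed the filter on low counts that left 13066 tested genes. The RNA-seq libraries came from cells treated for 24 h with 20 μM ILL (n = 3) or with DMSO vehicle (control, n = 3), so a single line, dose and time were available. The labels do not say whether libraries of a group came from separate cultures, and p-values measure only the spread between these libraries. The comparison asked which parts of the mismatch repair machinery changed at the RNA level with ILL.

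Mismatch repair removes wrong bases and small loops left behind by DNA polymerases, and it is most needed while DNA is being copied. A MutS dimer, in which MSH6 or MSH3 pairs with a shared partner, finds the error, and MSH6 is known for base mismatches and very short loops while MSH3 is known for longer loops. A MutL dimer, in which PMS2, MLH3 or PMS1 pairs with another shared partner, is then recruited. PMS2 is the main MutL nuclease subunit of this repair, MLH3 is best known for its role in meiotic crossing over, and the role of PMS1 is poorly defined. EXO1 is the exonuclease that digests the faulty strand, after which the gap is filled by DNA polymerase delta on the PCNA clamp and sealed by a ligase. Loss of mismatch repair gives microsatellite instability, a feature of a subset of biliary tumors.

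RefSeq promoter windows on GRCh38.p14, from 250 bases before to 50 bases after the listed start, were matched for all 6 genes and searched on both strands for the E2F letters TTTCCCGC, TTTCGCGC, TTTGCCGC and TTTGGCGC, for the CHR letters TTTGAA and for CCAAT. For genes with several listed starts the first was used. E2F letters were found in 4 of the 6 windows, against 3.33% of 27305 promoter windows of the same length. They occurred in MSH6 and EXO1, which fell with ILL, and in PMS2 and MSH3, which did not pass the test. The 30-base stretches of MSH6, EXO1 and PMS2 are shown as examples, and that of MSH3 is not printed. Capitals mark the matched letters, and each stretch is given on the strand of its gene.
MSH6, chr2:47783137-47783166, plus strand: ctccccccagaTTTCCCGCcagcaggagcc
EXO1, chr1:241848197-241848226, plus strand: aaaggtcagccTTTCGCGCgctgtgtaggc
PMS2, chr7:6009131-6009160, minus strand: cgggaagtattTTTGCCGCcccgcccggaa
The match began 3 bases after the listed start in MSH6 and 4 bases after it in EXO1. In MSH3 it lay 107 bases before the start and consisted of 2 overlapping matches on opposite strands, and in PMS2 it lay 43 bases before the start. MLH3 had no match to any of these letters. PMS1 had no E2F match but 2 CCAAT matches, shown here since PMS1 fell with ILL. PMS2, which did not pass the test, had 3 CCAAT matches, and MSH6 had 1. CCAAT was thus found in 3 of the 6 windows, against 35.7% of all windows.
PMS1, chr2:189784386-189784415, plus strand: cgctgccagcggATTGGctgcgagcagcgc
PMS1, chr2:189784403-189784432, plus strand: ctgcgagcagcgCCAATctcacgttgcccc
The CHR letters were found in 0 of the 6 windows and in 15.4% of all windows. A match describes the letters of these windows and was not tested as a binding site.

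Total counts per library ranged from 34282764 to 37758569, and the 6 genes together took 257 to 274 CPM (counts scaled by library total only) in control libraries and 98.8 to 104 CPM with ILL. The lowest count of any of them in a library was 152. The biliary epithelial markers KRT7, KRT19, KRT8, KRT18, EPCAM, SOX9 and CDH1 were all expressed in both groups, with a summed level of 5079 to 5203 FPKM in control and 4585 to 4835 FPKM in ILL libraries. Within this list CDH1, the epithelial cadherin, was a DEG higher (log2 fold change 2.07), KRT7 rose by 0.64 and KRT18 fell by 0.82 on the log2 scale. The 5 fibroblast markers summed to 2.62 to 2.85 FPKM in control and 3.24 to 3.73 FPKM in ILL libraries, and the 4 endothelial markers to 0.195 to 0.315 FPKM and 0.293 to 0.351 FPKM. The hepatocyte list summed to 9.53 to 11.5 FPKM in control and 8.94 to 15.2 FPKM in ILL libraries. The leukocyte list, whose markers PTPRC and CD3E were too low to be tested, summed to 22.05 to 24.9 FPKM in control and 63.9 to 66.7 FPKM in ILL libraries through CD68, a lysosomal protein, which rose by a log2 fold change of 1.58. The part of these differences in the results below was not tested.

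Of the 6 genes, 3 were differentially expressed genes (DEGs) lower with ILL, and 0 were DEGs higher with ILL. A DEG had an adjusted p-value under 0.05 in edgeR's quasi-likelihood test, adjusted over all tested genes, and a fold change above 2 or under 0.5. Under the same rule 11.4% of all tested genes were lower and 12.5% higher. EXO1, MSH6 and PMS1 were the DEGs, MLH3 fell by less than the fold change cutoff, and PMS2 and MSH3 did not pass the test. Without the fold change cutoff 4 of the 6 genes were lower, against 36.9% of all tested genes, and 0 were higher, against 36.2%. All ILL libraries lay below all control libraries in 4 of the 6 genes, against 38.0% of tested genes. In bulk RNA, fewer cells that express a gene and less RNA per cell cannot be told apart.

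**Figure D1:**
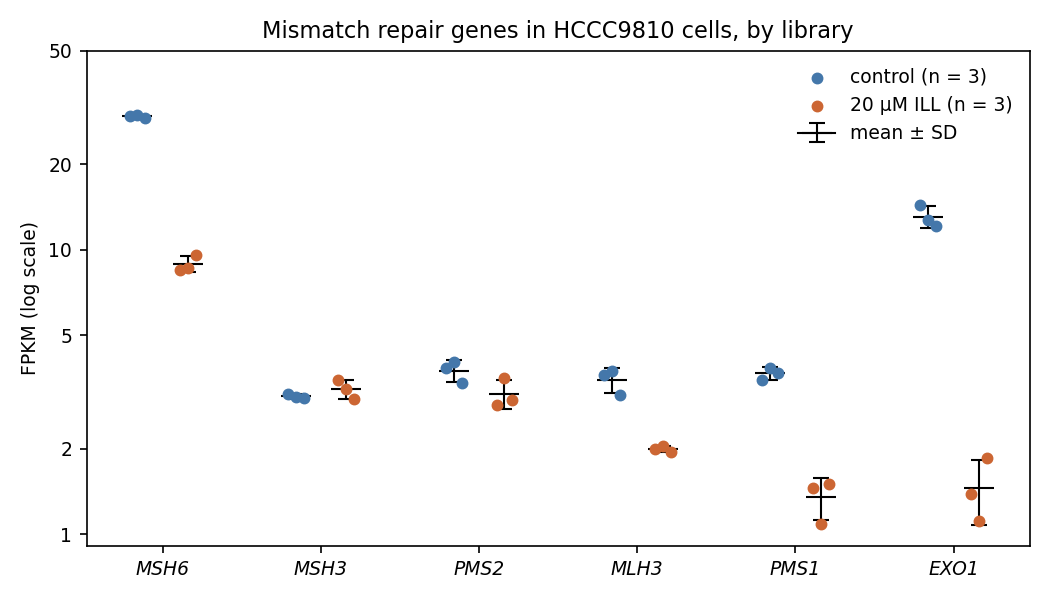
FPKM of the 6 mismatch repair genes in each library on a log axis, with control in blue, 20 μM ILL in orange, and bars for the mean ± SD (n = 3). EXO1, MSH6, PMS1 and MLH3 show separate groups, while the libraries of MSH3 and PMS2 overlap.

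Among the mismatch recognition subunits, MSH6 fell while MSH3 did not. MSH6 lies on chromosome 2 of GRCh38 from 47695530 to 47810101 on the plus strand. The listed start of its promoter window, 47783145, lies inside this span. MSH6 was at 29.6, 29.7 and 29.04 FPKM in the control libraries and at 8.52, 8.62 and 9.59 FPKM in the ILL libraries. FPKM is a level scaled by gene length and library size. The lowest control library was thus far above the highest ILL library, and the groups did not overlap. In CPM normalized for composition (TMM), as in all CPM values that follow, MSH6 went from 134 ± 1.06 in control to 42.7 ± 2.87 with ILL (SD, n = 3). Its log2 fold change was -1.65 (standard error, SE, 0.06, adjusted p = 9.0e-18 by edgeR's quasi-likelihood test), or 3.15-fold lower with a 95% confidence interval of 2.89 to 3.43. Exons of MSH6 share 1785 bases with those of FBXO11, a ubiquitin ligase subunit on the other strand, and reads of the pair cannot be told apart in counts made without strand. FBXO11 moved the other way, from 66.0 ± 2.29 CPM in control to 118 ± 5.05 CPM with ILL (SD, n = 3).

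MSH3, on chromosome 5 from 80654648 to 80876460 on the plus strand, was at 3.12, 3.05 and 3.003 FPKM in control and at 3.49, 3.24 and 2.99 FPKM in ILL libraries. In FPKM the lowest ILL library lay just under the lowest control library. In normalized CPM, at 13.5, 13.2 and 13.1 in control and 15.8, 14.8 and 13.6 with ILL, every ILL library lay above every control library. The log2 fold change was 0.15 (SE 0.10, adjusted p = 0.191 by edgeR), with a 95% confidence interval from 0.957-fold to 1.29-fold of control. A decrease of the size of that of MSH6 therefore lay outside the interval for MSH3. Counts of MSH3 were 463 to 523 per control library and 476 to 553 per ILL library.

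Among the MutL subunits PMS1 and MLH3 fell, and PMS2 did not pass the test. PMS1, on chromosome 2 from 189784085 to 189877629 on the plus strand, was at 3.48, 3.84 and 3.70 FPKM in control and at 1.46, 1.09 and 1.4997 FPKM in ILL libraries. The groups were separate, with ILL replicate 2 the lowest library. The log2 fold change was -1.38 (SE 0.12, adjusted p = 4.0e-10 by edgeR), or 2.60-fold lower with a 95% confidence interval of 2.18 to 3.10. On the log2(FPKM + 1) scale with limma, PMS1 fell by 0.998 and no longer reached the fold change cutoff, a scale that understates the change of low genes.

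MLH3, on chromosome 14 from 75013764 to 75051532 on the minus strand, was at 3.63, 3.76 and 3.10 FPKM in control and at 1.99, 2.05 and 1.95 FPKM in ILL libraries. ILL libraries were close to each other and all below control replicate 3, the lowest control library. MLH3 fell by 0.74 on the log2 scale (SE 0.09, adjusted p = 1.1e-07 by edgeR), which is 1.67-fold lower with a 95% confidence interval of 1.46 to 1.90 and short of the DEG cutoff.

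PMS2, on chromosome 7 from 5973239 to 6009125 on the minus strand, was at 3.85, 4.03 and 3.41 FPKM in control and at 2.85, 3.53 and 2.96 FPKM in ILL libraries. ILL replicate 2 lay above control replicate 3, and the groups overlapped. The log2 fold change was -0.20 (SE 0.10, adjusted p = 0.0816 by edgeR), with a 95% confidence interval from 0.750-fold to 1.01-fold of control. Its side of the adjusted p threshold depended on the libraries and the scaling, with adjusted p = 0.0131 in the edgeR fit without ILL replicate 2, 0.0378 without control replicate 3 and 0.021 with scaling by library size only. PMS2 has 11 annotated pseudogenes, of which 0 are in the count table. Its counts are uncertain to the extent that reads were shared with these copies.

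EXO1 had the largest decrease of the 6 genes. The gene, on chromosome 1 from 241847967 to 241895148 on the plus strand, was at 14.3, 12.7 and 12.1 FPKM in control and at 1.38, 1.12 and 1.86 FPKM in ILL libraries. Control libraries held 2075, 1666 and 1612 reads of EXO1, and ILL libraries held 189, 152 and 255. Every control library was several times above every ILL library. The log2 fold change was -3.10 (SE 0.12, adjusted p = 2.3e-17 by edgeR), or 8.55-fold lower with a 95% confidence interval of 7.21 to 10.1. Of the 13066 tested genes 0.658% had a lower log2 fold change than EXO1, against 4.97% for MSH6, 6.74% for PMS1 and 17.2% for MLH3.

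**Figure D2:**
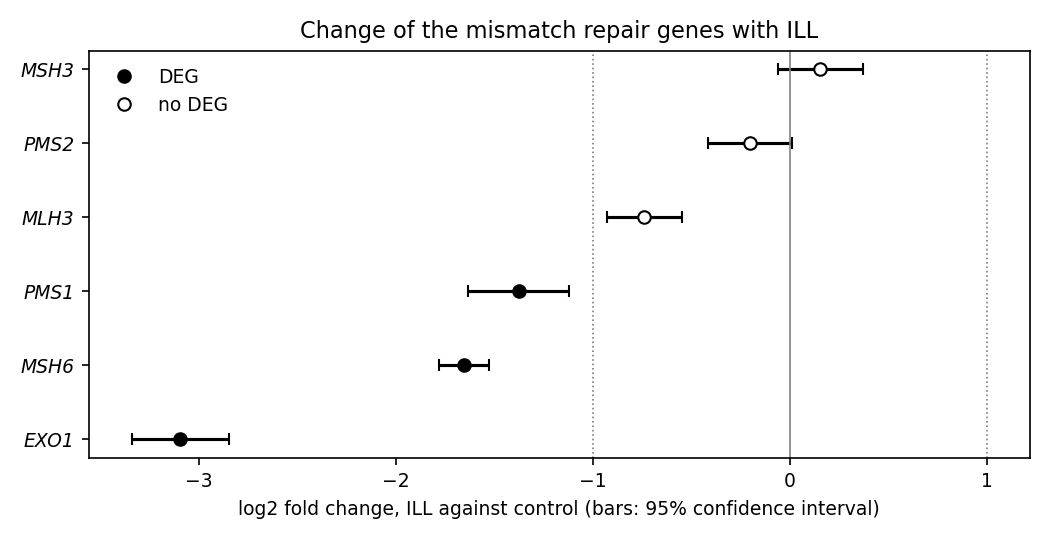
Log2 fold change of each mismatch repair gene, ILL against control, with 95% confidence intervals from edgeR's fit, filled points for DEGs, and dotted lines at the DEG fold change cutoffs. EXO1 (-3.10), MSH6 (-1.65) and PMS1 (-1.38) lie beyond the lower cutoff, and the intervals of PMS2 and MSH3 include 0.

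Since the decreases were unequal, the make-up of the gene set differed between the groups. Per length, the order in control was MSH6 at 29.4 ± 0.343 FPKM, EXO1 at 13.0 ± 1.15, PMS2 at 3.76 ± 0.321, PMS1 at 3.68 ± 0.181, MLH3 at 3.50 ± 0.353 and MSH3 at 3.06 ± 0.058 (SD, n = 3). Each of the last 4 genes overlapped the next in this order. With ILL the order was MSH6 at 8.91 ± 0.591 FPKM, MSH3 at 3.24 ± 0.251, PMS2 at 3.11 ± 0.367, MLH3 at 1.997 ± 0.049, EXO1 at 1.45 ± 0.374 and PMS1 at 1.35 ± 0.228 (SD, n = 3), where MSH3 overlapped PMS2 and EXO1 overlapped PMS1. The summed level of the 6 genes was 56.5 ± 1.89 FPKM in control and 20.1 ± 0.682 FPKM with ILL (SD, n = 3). The share of EXO1 in this sum was 23.1% ± 1.42 in control and 7.20% ± 1.62 with ILL, while that of MSH3 was 5.41% ± 0.097 and 16.2% ± 1.72 (SD, n = 3).

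MSH6 and MSH3 compete for the same partner, as do the MutL subunits, and their ratios within a library do not depend on how libraries are scaled. The FPKM ratio of MSH6 to MSH3 was 9.49, 9.74 and 9.67 in control and 2.44, 2.66 and 3.21 in ILL libraries, 3.50-fold lower with ILL. The ratio of PMS2 to MLH3 was 1.06, 1.07 and 1.10 in control and 1.43, 1.72 and 1.52 with ILL. PMS2 to PMS1 went from 1.10, 1.05 and 0.920 to 1.95, 3.25 and 1.98, and ILL replicate 2, with the highest PMS2 and the lowest PMS1 value of the ILL libraries, stood apart. MLH3 to PMS1 went from 1.04, 0.979 and 0.837 to 1.37, 1.89 and 1.30. In each of these 4 ratios the groups did not overlap. The exact two-sided permutation test over libraries gave p = 0.1 for each, and 0.1 after adjustment over the 4 ratios, which is the smallest p that 3 against 3 libraries allow. The difference between these genes thus could not pass that test at this n.

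**Figure D3:**
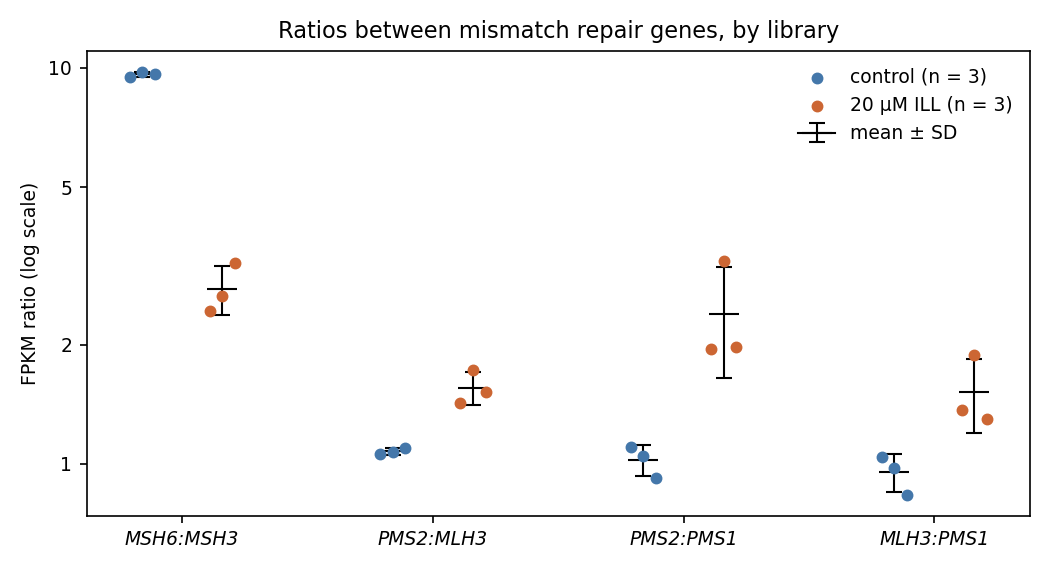
FPKM ratios of mismatch repair genes within each library on a log axis, control in blue and 20 μM ILL in orange, with bars for the mean ± SD (n = 3). MSH6:MSH3 went from 9.49 to 9.74 in control down to 2.44 to 3.21 with ILL, while the ratios among MutL genes were higher with ILL.

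By GENCODE release 29 on GRCh38, PMS1 and PMS2 each start within 1000 bases of a gene that starts on the opposite strand. That search took the start of MSH6 from its gene span and not from the listed promoter start. In the PMS1 pair the mismatch repair gene fell and its neighbor did not pass the test. The genes of this pair overlap by 287 bases at their starts and share 103 bases of exon. Reads of the shared bases cannot be told apart in counts made without strand. ORMDL1, a regulator of sphingolipid synthesis that starts 286 bases from PMS1, was at 8.49, 8.76 and 9.41 FPKM in control and at 7.54, 7.03 and 8.26 FPKM with ILL. Its log2 fold change was -0.15 (SE 0.07, adjusted p = 0.0541 by edgeR), and PMS1 went from 0.414 ± 0.023 to 0.176 ± 0.020 of the ORMDL1 level (SD, n = 3). AIMP2, a scaffold of the multi-tRNA synthetase complex that starts 120 bases from PMS2, fell by 0.54 on the log2 scale (SE 0.07, adjusted p = 1.3e-07 by edgeR), from 28.5 ± 1.15 to 18.7 ± 1.31 FPKM (SD, n = 3). These pair ratios were formed after the values were seen and are given as a description.

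Most genes that complete the repair after excision were lower with ILL. The list held 14 genes for the PCNA clamp, its RFC loader, the single-strand binding protein RPA, polymerase delta and LIG1. Of these, 11 were DEGs lower and 1 was a DEG higher with ILL, against 11.4% and 12.5% of all tested genes. Their median log2 fold change was -1.76, against -0.0012 for all tested genes. The clamp gene PCNA fell from 306 ± 2.84 to 57.6 ± 2.02 CPM (SD, n = 3), with a log2 fold change of -2.41. The clamp loader genes RFC3 and RFC5 fell by 2.58 and 2.38 on the log2 scale. The exception was POLD4, the smallest subunit of polymerase delta, which rose by a log2 fold change of 1.10 (SE 0.06, adjusted p = 3.9e-14 by edgeR). EXO1 had a lower log2 fold change than each of these 14 genes, while MSH6 ranked among them with 9 below it and 5 above.

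EXO1 belongs to a family of structure-specific nucleases with FEN1, which trims flaps in Okazaki fragments, GEN1, which cuts Holliday junctions, and ERCC5, the nucleotide excision repair nuclease. Of these 3 other genes, FEN1 and GEN1 were DEGs lower with ILL, against 11.4% of all tested genes. Their log2 fold changes were -2.58 and -2.13. ERCC5, a gene with low counts chosen for mention after its value was seen, was at 1.64 ± 0.196 CPM in control and 1.63 ± 0.529 CPM with ILL (SD, n = 3).

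Of 8 partners and chromatin regulators of mismatch repair, 3 were DEGs lower and 0 were DEGs higher with ILL, against 11.4% and 12.5% of all tested genes, with a median log2 fold change of -0.54. MCM8, a helicase subunit, fell by 2.38, NSD2, a histone H3 lysine methyltransferase, by 1.88, and HMGB1, a DNA-bending chromatin protein, by 1.71 on the log2 scale. Of the meiotic MutS genes, MSH4 had 1 read over all 6 libraries and was not tested, and MSH5 was at 9.30 ± 1.34 CPM in control and 5.12 ± 1.42 CPM with ILL (SD, n = 3), a log2 fold change of -0.86 (SE 0.18, adjusted p = 0.00013 by edgeR).

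Cell cycle genes, given here because mismatch repair genes are known to be expressed most in dividing cells, were lower with ILL throughout. Of 23 S phase genes 23 were DEGs lower, against 11.4% of all tested genes. Their median log2 fold change was -2.60, with a range from -3.33 for TYMS to -1.16. Of 17 mitosis genes 17 were DEGs lower, beside the same share of all tested genes, with a median of -3.07. The summed level of the S phase genes was between 852 and 861 FPKM in control and between 148 and 158 FPKM in ILL libraries. EXO1 lay inside this range, with 1 of the 23 S phase genes below it and 22 above. MSH6 and PMS1 lay at its upper end, each with 22 S phase genes below and 1 above, and MLH3, PMS2 and MSH3 lay above all 23. The part of the cell cycle in the changes of the mismatch repair genes was not tested.

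DNA repair lists outside mismatch repair served for comparison. Of 10 DNA glycosylase genes 2 were DEGs lower and 0 higher, against 11.4% and 12.5% of all tested genes, with a median log2 fold change of -0.34. Of 10 genes of nonhomologous end joining 2 were DEGs lower and 0 higher, beside the same shares of all tested genes, with a median of -0.61. A count of 2 of 10 is near the share of all tested genes. The median of the 6 mismatch repair genes was -1.06, over a span from -3.10 to 0.15. Changes within these lists were unequal. NEIL3 and UNG, glycosylases that act on oxidized bases and on uracil, fell by 3.51 and 1.71 on the log2 scale, and PRKDC and PAXX, which act at broken ends, each fell by 1.47. In the other direction and short of the DEG cutoff, the end joining ligase LIG4 rose by 0.69 and the gap-filling polymerases POLL and POLM by 0.56 and 0.14, and the glycosylases MPG and SMUG1 rose by 0.35 and 0.21 on the log2 scale. These 5 genes were named after their values were seen.

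The genes whose pattern over the 6 libraries was most like that of each mismatch repair gene were found by the root mean square distance between centered log2 CPM profiles, among 12048 other genes with a mean of at least 1 CPM. For EXO1 these were CENPM and NUF2, at distances of 0.0901 and 0.105. For MSH6 they were SRM and EED, at 0.0146 and 0.0354, and for PMS1 PAK1IP1 and BYSL, at 0.0593 and 0.0612. MLH3 was nearest to HOXB2 and PTGES3 (0.0347 and 0.0378), PMS2 to IL1R1 and POMGNT2 (0.0508 and 0.0515), and MSH3 to COP1 and PAN3 (0.0291 and 0.0328). With 2 groups of 3 libraries, such likeness is mostly likeness of the difference between groups, and the genes share libraries and scaling.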

How the data were processed

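RNA from HCCC9810 cells was sequenced in 6 libraries. The values deposited by the authors are raw counts for each gene symbol and, in a separate table, FPKM, unpooled. The submitters' processing notes name GRCh38 and DESeq2, and the aligner, counting program, annotation and strand setting are not given in the sources used here. Samples were grouped by their titles.

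Genes were filtered with filterByExpr, normalized by TMM and tested with edgeR's quasi-likelihood test (edgeR 4.0.16, R 4.3.3) with Benjamini-Hochberg adjustment over 13066 genes. Standard errors were computed from the F statistics. CPM values are TMM-normalized. Between libraries of a group the chi-square per degree of freedom was at least 5.09, so none was a repeat sequencing of another. This value does not show whether the libraries came from separate cultures.

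Alternatives were no count filter, library size only, size factors of DESeq2, at least 10 counts in every library, DESeq2 1.42.0, a replicate block, each library left out, no fold change cutoff, and limma 3.58.1 on log2(FPKM + 1) and log2(FPKM + 0.1) with a mean FPKM of at least 1, and on log2(FPKM + 1) unfiltered.

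The members and gene lists were chosen with earlier results of these data known, and the lists were written by hand. Named were the members, in each list up to 3 DEGs with the lowest and 3 with the highest log2 fold change with a mean of at least 1 CPM, head-to-head neighbors, cell type markers and the 2 nearest profiles of each member. Some genes of the pathway are not reported here.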

Additional observations from a re-analysis of the deposited data

How the results depend on the processing

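Over 15 alternatives each, the direction of the log2 fold change did not reverse for any of the 6 genes, and EXO1 and MSH6 were DEGs in all of them, from -3.31 to -2.53 and from -1.72 to -1.62. PMS1 was a DEG in 13 of 15, and under limma on log2(FPKM + 1), with and without the filter, its value was -0.998, short of the fold change cutoff, which follows from the pseudocount. PMS2 had an adjusted p under 0.05 in 5 of 15 alternatives, among them the fits without control replicate 3 and without ILL replicate 2 described above, and MSH3 in 0 of 15 (adjusted p from 0.11 to 0.477). MLH3 lay between -0.82 and -0.58 and was a DEG in 0 alternatives. Without 1 library, PMS2 ranged from -0.31 to -0.14 and MSH3 from 0.10 to 0.21. Library size only moved the median of all tested genes from -0.0012 to -0.0702. The replicate numbers gave no pairing, with correlations of 0.0107, -0.0218 and -0.0179 between same-numbered libraries, and the replicate block left 3 of the 6 genes as DEGs, with PMS2 at -0.21 (adjusted p = 0.0674 from edgeR) and 1484 lower DEGs over all genes in place of 1485. In the ratios, the exact sign-flip test over 3 same-numbered pairs could not go below p = 0.25. Without the fold change cutoff, genes lower with ILL numbered 6 of 8 partners and regulators, 7 of 10 glycosylases, 7 of 10 end joining genes and 1 of 1 tested meiotic MutS gene, by construction at least as many as the DEGs, against 36.9% of all tested genes, and genes higher numbered 1, 2, 3 and 0, against 36.2%. The meiotic count was 0 to 1 over fits without 1 library, with MSH5 a DEG without ILL replicate 2. Higher DEGs over all genes numbered 1635 in the main fit, which tested 13066 genes. Under limma on log2(FPKM + 1) they numbered 668 with the filter and 680 without it, and 909 on log2(FPKM + 0.1). Lower DEGs numbered 1485, against 923, 929 and 1247 under the same settings. The gene sets differed, since the filtered limma fits tested 10571 genes and the unfiltered fit 16266. With library size only, lower DEGs numbered 1649 and higher DEGs 1488, so that lower calls became the larger group.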

Other observations

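In the ATR checkpoint, the kinase pathway that reads single-stranded DNA at stalled forks and at mismatch repair intermediates, 7 of 12 genes were DEGs lower and 0 were DEGs higher with ILL, against 11.4% and 12.5% of all tested genes, with a median log2 fold change of -1.31. CLSPN, the adaptor that passes the signal to the kinase CHEK1, fell by 3.03 on the log2 scale, from 59.7 ± 1.35 to 7.31 ± 0.652 CPM (SD, n = 3), close to the change of EXO1. TIMELESS, a fork protection protein, and CHEK1 fell by 2.24 and 1.86. The activators of ATR moved apart, an observation chosen after the values were seen. TOPBP1 had a log2 fold change of -1.44 (standard error, SE, 0.05, adjusted p = 1.5e-17 by edgeR's quasi-likelihood test), while ETAA1 rose by 0.79 (SE 0.10, adjusted p = 1.2e-07 by edgeR), below the DEG cutoff.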
